A study of Mus musculus with 5 samples.

Results

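Mouse chromosome 11 was examined in 1 kb tiles of a reduced representation bisulfite sequencing data set on blood stem cells that carry a dominant-negative histone H3.3. A tile was a member if it lay on chromosome 11 (mm9) and held at least 3 CpGs with at least 10 reads of the second count, defined below, in each of the 5 libraries. An interval of 0.2 Mb from chr11:96040001 on was left out. This gave 10388 tiles with 119462 CpGs, out of 152678 autosomal tiles in all. The chromosome was chosen because it had the highest rate of K36M losses among the autosomes, so its K36M against WT counts and rates are given as a description, without a test. The tiles were compared with the 9789 tiles of chromosome 1.

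The 2 K36M libraries came from mice that express H3.3 dominant negative at lysine 36, and the 2 K9M libraries from mice that express H3.3 dominant negative at lysine 9. Both kinds of mutant mice received 2 mg/ml doxycycline in their drinking water, and the third group was 1 wild-type (WT) library for which no doxycycline is stated. The labels call the cells HSCs and also say that they were sorted from peripheral blood, and they give no promoter for the transgenes and no age, sex or number of mice. The cell type was not checked here against methylation at lineage loci. Nothing in the labels says that replicates came from separate animals, so p-values measure the spread between these libraries, which may be technical. With 1 WT library, every comparison with WT takes its spread from the K36M and K9M pairs.

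Lysine 36 of histone H3 is methylated by NSD1, NSD2 and SETD2, and a lysine-to-methionine H3 at this position is known to inhibit these enzymes. The de novo DNA methyltransferases DNMT3A and DNMT3B carry PWWP domains that bind dimethylated and trimethylated lysine 36, and trimethylation covers the bodies of transcribed genes. Lysine 9 methylation marks heterochromatin and is tied to DNA methylation by other readers. The assay cuts DNA with MspI at CCGG, so it samples mainly CpG-rich sequence, and CpG-rich promoters are unmethylated in most cells.

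Promoters are shown first because their sequence also tied the tiles to genes. RefSeq promoter sequences (GRCm38.p6, 300 bases each) were placed on the mm9 positions of the files by the exact spacing of their CpGs, and the positions below are the mm9 positions so obtained. The 4 promoters printed are the Gm39468 and Gm32915 promoters, whose start tiles were called lower in K36M than in K9M or WT, the Pttg1 promoter, which was higher in K9M, and the Tmc6 promoter, which is close to a K36M loss. They were chosen after their values were seen. Each runs 5′ to 3′ on the strand of its gene, and capitals mark the CpGs that were measured in all 5 libraries.
Gm39468, chr11:113647238-113647537, plus strand: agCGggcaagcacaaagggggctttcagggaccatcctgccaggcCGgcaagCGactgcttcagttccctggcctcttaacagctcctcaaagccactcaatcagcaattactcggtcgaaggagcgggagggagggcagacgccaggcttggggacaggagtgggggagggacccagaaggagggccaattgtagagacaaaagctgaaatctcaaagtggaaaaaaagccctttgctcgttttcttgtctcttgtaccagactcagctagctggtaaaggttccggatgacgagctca
Gm32915, chr11:57645360-57645659, plus strand: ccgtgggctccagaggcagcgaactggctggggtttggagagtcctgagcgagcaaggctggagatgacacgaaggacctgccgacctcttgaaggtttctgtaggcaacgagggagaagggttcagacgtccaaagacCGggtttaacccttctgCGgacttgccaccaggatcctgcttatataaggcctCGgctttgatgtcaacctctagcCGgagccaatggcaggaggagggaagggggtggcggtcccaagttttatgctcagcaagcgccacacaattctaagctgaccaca
Pttg1, chr11:43239434-43239733, minus strand: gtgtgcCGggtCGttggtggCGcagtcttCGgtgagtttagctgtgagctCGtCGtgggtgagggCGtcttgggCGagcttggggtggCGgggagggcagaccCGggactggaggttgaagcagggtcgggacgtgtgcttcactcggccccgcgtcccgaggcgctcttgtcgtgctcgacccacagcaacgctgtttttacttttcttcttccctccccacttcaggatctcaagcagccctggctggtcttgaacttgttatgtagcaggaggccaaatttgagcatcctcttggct
Tmc6, chr11:117641957-117642256, minus strand: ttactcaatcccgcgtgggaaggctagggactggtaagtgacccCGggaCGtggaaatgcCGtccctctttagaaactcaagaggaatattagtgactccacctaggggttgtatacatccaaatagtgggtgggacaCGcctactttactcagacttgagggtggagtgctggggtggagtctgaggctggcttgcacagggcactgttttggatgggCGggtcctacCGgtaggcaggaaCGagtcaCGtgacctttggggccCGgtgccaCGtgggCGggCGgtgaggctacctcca

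The MspI site CCGG, a palindrome that reads the same on both strands, was found 2 times each in the Gm39468, Gm32915 and Pttg1 windows and 3 times in that of Tmc6. It occurred in 60.5% of the 2289 chromosome 11 promoter windows and in 52.8% of all 32851 windows of the table. Between 3 and 12 CpGs per printed window were measured.

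Methylation was expressed relative to each library's own plateau. The deposited level times the deposited total gave a methylated count, and the second count is the total less that count, or the whole total in K9M replicate 2, whose 2 columns are on another scale. The ratio of the 2 counts levelled off in highly methylated tiles, at 1.22 and 1.26 for K36M, 1.37 and 0.954 for K9M and 1.23 for WT. A level of 100% is that plateau, single values can pass it, and 1 point is 1% of it. The libraries held 111738339 to 174743796 counts in all and listed 222589 to 233619 CpGs on chromosome 11, with a median second count per CpG of 17 to 22.

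Across all 10388 tiles, the mean level was 62.4% and 63.3% in the K36M libraries, 65.4% and 68.0% in the K9M libraries and 65.6% in WT. Both K36M libraries lay below all 3 others, and the 2 K9M libraries lay on either side of WT. The K36M mean was 62.9% ± 0.63 and the K9M mean 66.7% ± 1.83 (SD, n = 2 each), a difference of -3.79 points. An exact two-sided permutation test of the 4 library means gave p = 0.33, the smallest that 2 against 2 libraries allow.

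The K36M libraries were furthest below WT at tiles of intermediate methylation. Tiles were sorted by their level in K9M replicate 2, and 1322 of them (12.7%) lay at 20% to 80%. In these the mean was 47.3% and 46.8% in the K36M libraries, 53.2% and 54.2% in the K9M libraries and 53.5% in WT, and the K36M mean minus WT was -6.44 points. In the 2557 tiles under 20% the K36M mean minus WT was -0.332 points, at 2.79% in K36M against 3.12% in WT. In the 6509 tiles at 80% or more, the K36M mean minus WT was -2.87 points, at 89.7% ± 1.15 (SD, n = 2) in K36M against 92.6% in WT.

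Chromosome 11 had a larger share of tiles of intermediate level than chromosome 1, and in those tiles K36M was also further below WT. Chromosome 1 had 8.83% of its tiles at 20% to 80%, and there K36M minus WT was -5.54 points, against -6.44 points on chromosome 11. Over the other 18 autosomes the share was 10.4% and K36M minus WT was -5.30 points. The share was the highest of the 19 autosomes on chromosome 11, and so was the number of measured tiles per Mb, 87.3 against 50.5 on chromosome 1.

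A tile was called when its adjusted p was under 0.05 in a logistic fit over all autosomal tiles and its group levels differed by at least 10 points. In K36M against WT, 0.705% of all autosomal tiles were called lower, and on chromosome 11 this was 121 of 10388 tiles, or 1.16%. The same comparison called 0.0242% of all tiles higher in K36M, 3 of them on chromosome 11 (0.0289%). On chromosome 1, 36 of 9789 tiles (0.368%) were lower in K36M. These numbers are what chose the chromosome. They also depend on the test: 169 losses were called by edgeR's quasi-likelihood test and 0 by limma on the relative levels, where 659 losses had an unadjusted p under 0.05. With all tiles setting the dispersion prior there were 77 losses, and 61 with the replicate number as a block.

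Counted without a test, the difference between the chromosomes was smaller, at 5.21% against 4.68% of tiles in K36M replicate 1. On chromosome 11, 5.21% and 4.59% of tiles lay 20 points or more below WT in K36M replicates 1 and 2, and 2.18% and 1.03% in K9M replicates 1 and 2. On chromosome 1 these shares were 4.68% and 3.67% in K36M, with 2.63% and 1.06% in K9M, and over all autosomes 4.59% and 4.1% in K36M, with 2.46% and 0.995% in K9M. The reverse, 20 points or more above WT, held for 1.70% and 1.23% of chromosome 11 tiles in K36M and 2.31% and 1.82% in K9M, and over all autosomes for 2.41% and 1.49% in K36M and 2.53% and 1.84% in K9M. On chromosome 11 the K36M libraries had more tiles far below WT than far above it, and the K9M libraries had more far above it.

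The 121 losses sat mainly at intermediate levels. They had a level of 20% to 80% in K9M replicate 2 in 84 tiles, under 20% in 23 and 80% or more in 14. Their median level was 14.0% and 14.5% in the K36M libraries, 35.9% and 42.0% in the K9M libraries and 38.5% in WT. The means were 18.2% and 17.6% in K36M, 43.2% and 45.2% in K9M and 43.2% in WT, and these means cover K9M values on both sides of WT. Both K9M libraries were within 10 points of WT in 50 of the 121 tiles (41.3%, against 65.2% of all members), 10 points or more below it in 19 (15.7%, against 2.98%) and 10 points or more above it in 23 (19%, against 4.34%). Among members at 20% to 80% in K9M replicate 2 these shares were 56.0%, 6.81% and 7.79%. The losses were called against the same WT library. The difference of K36M from WT had a median of -25.4 points and ran from -56.4 to -10.4 points, and 13 tiles differed by 40 points or more. The tiles were small: 82 of them had 3 to 9 measured CpGs and 7 had 20 or more, with a median of 7 against 6 over all members. Their median second count per CpG was 47.5 in WT, against 43.0 over all members.

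**Figure D1:**
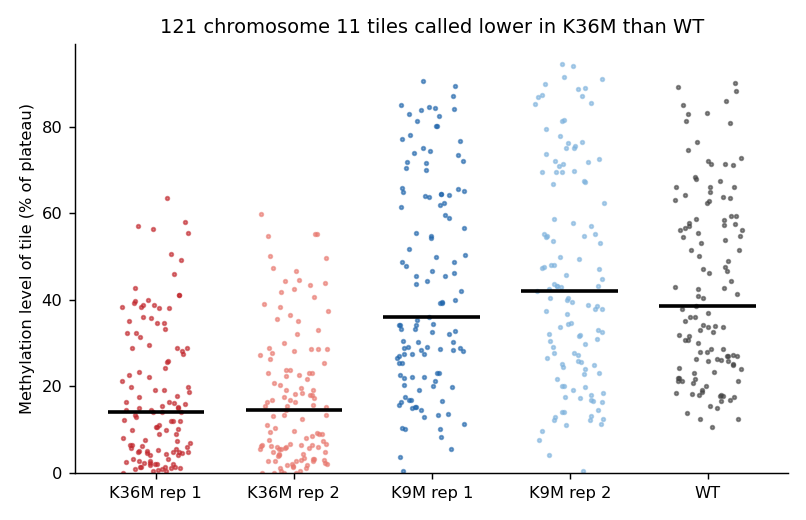
Methylation level (percent of the library's plateau, vertical axis) of the 121 chromosome 11 tiles called lower in K36M than in WT, in each of the 5 libraries; each point is a tile and the bar is the median. The medians stand at 14.0% and 14.5% in the K36M libraries, at 35.9% and 42.0% in the K9M libraries and at 38.5% in WT; the tiles were chosen by the K36M and WT values.

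The rate on chromosome 11 was also above that of chromosome 1 when level and number of CpGs were matched, by a smaller ratio. Chromosome 11 had 11.6 losses per 1000 tiles and chromosome 1 had 3.68, a ratio of 3.17. When tiles were sorted into 38 classes by level in K9M replicate 2 and by listed CpGs, and weighted as on chromosome 1, the rates were 7.67 and 3.58 per 1000, a ratio of 2.14. Chromosome 1 had the lowest matched rate of the 19 autosomes, and chromosomes 19, 15 and 17 had matched ratios to it of 2.09, 2.05 and 2.02. The ratio of chromosome 11 to chromosome 1 was not the same in every class of level. At 50% to 60% the rates were 58.1 per 1000 on chromosome 11 and 70.7 on chromosome 1. Against the other 18 autosomes the matched rates were 9.24 and 6.70 per 1000, a ratio of 1.38, and matching also on the number of tiles in the 1 Mb window brought the ratio to 1.23. Among tiles at 20% to 80% alone, chromosome 11 had 63.5 losses per 1000 and ranked 3, after chromosomes 15 and 17 with 67.6 and 67.1, while chromosome 1 had 30.1 and the lowest rate of the 19.

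By level, losses were rare at both ends of the scale on chromosome 11. They made up 4 of 2311 tiles under 10% and 4 of 5598 tiles at 90% or more. A tile under 10% can hardly fall by the 10 points a call needs, so the rate at the low end is largely set by that threshold. Between 10% and 50% they were most frequent, with 19 of 246, 17 of 189, 18 of 191 and 18 of 180 tiles in successive 10-point classes. At 50% to 60% it was 10 of 172 tiles on chromosome 11 and 7 of 99 on chromosome 1. On chromosome 11 it was 8 of 199 tiles at 60% to 70%, 13 of 391 at 70% to 80% and 10 of 911 at 80% to 90%. By listed CpGs, the rate was 8.88 per 1000 tiles that listed 3 to 9 CpGs and 17.6 for 10 to 19. It was 15.3 for 20 to 39 CpGs and 4.01 for tiles listing at least 40.

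**Figure D2:**
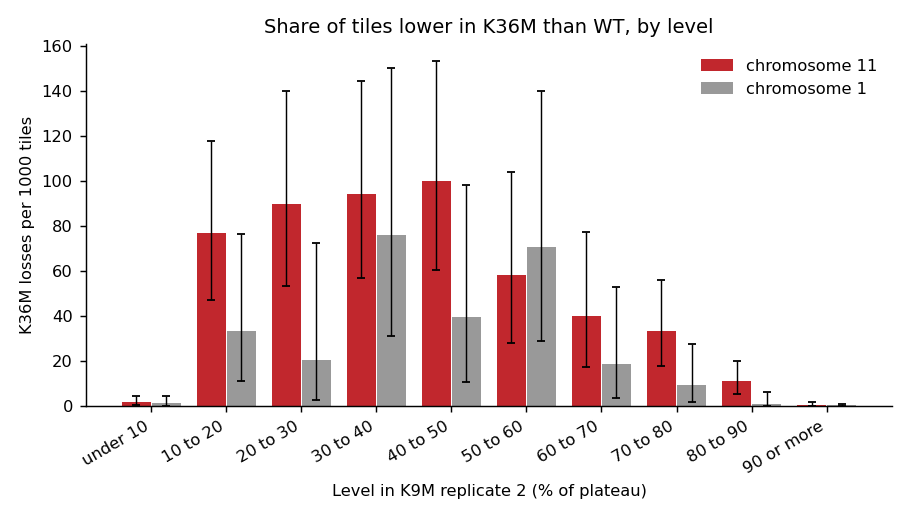
Losses per 1000 tiles (vertical axis) by the level of the tile in K9M replicate 2 (percent of plateau, horizontal axis), for chromosome 11 and chromosome 1; bars are rates and error bars are exact 95% Clopper-Pearson intervals. Chromosome 11 stands at 77.2 to 100.0 losses per 1000 tiles between 10% and 50%, and chromosome 1 at 20.6 to 76.1; at 50% to 60% chromosome 11 stands at 58.1 and chromosome 1 at 70.7.

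Along the chromosome, the losses followed the density of measured tiles. Of 119 windows of 1 Mb, 53 held a loss and 18 held 3 or more, against 26 and 1 of 194 windows on chromosome 1. The window with the most was chr11:97000001-98000000, with 7 losses in 222 tiles. Next were chr11:120000001-121000000 with 6 in 227 tiles, chr11:117000001-118000000 with 6 in 233 and chr11:116000001-117000000 with 6 in 257. The 10 windows with the most losses, picked by that number, held 42.1% of them and 20.2% of the tiles. On chromosome 1 the 10 windows so picked held 55.6% of the losses and 9.22% of the tiles. The 39 windows with the fewest tiles (10 to 48 each) had 2 losses, or 1.63 per 1000 tiles, the next 40 windows had 23, or 8.10 per 1000, and the 40 windows with the most tiles (99 to 273) had 96, or 15.2 per 1000.

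The same order by density was seen elsewhere in the genome, at somewhat lower rates. Chromosome 11 had 17.4 losses per 1000 tiles in windows with 150 tiles or more, and the other 18 autosomes had 13.4. In windows with at least 100 but under 150 tiles the rates were 12.1 and 10.5 per 1000, with 50 to 99 tiles 8.45 and 5.41, and under 50 tiles 1.51 and 1.41. Windows with 150 tiles or more held 35.9% of the tiles on chromosome 11 and 15.6% on the other 18 autosomes. In their tiles at 20% to 80% the K36M libraries minus WT were at -7.03 and -7.61 points on chromosome 11, and at -6.41 and -6.71 points elsewhere.

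Rates differed between parts of the chromosome. The part from 80 Mb to the end had 77 losses in 5202 tiles (14.8 per 1000), the part from 40 to 80 Mb 30 in 3352 (8.95 per 1000) and the first 40 Mb 14 in 1834 (7.63 per 1000). Their ratios to chromosome 1 at matched level and CpG number were 2.60, 1.68 and 1.55. The first and the last 3 Mb of measured sequence held 7 losses in 390 tiles (17.9 per 1000) and 10 in 536 (18.7 per 1000), with matched ratios of 2.79 and 3.84. Both rates were above the 11.6 per 1000 of the whole chromosome. They were not the highest, since the inner window chr11:97000001-98000000 had 31.5 per 1000, and other stretches of 3 Mb were not compared.

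A lower K36M level was nevertheless seen in nearly all windows that held enough tiles of intermediate level. In the 52 windows with at least 10 tiles at 20% to 80%, the mean of these tiles was below WT in 51 windows in each K36M library, in 26 in K9M replicate 1 and in 18 in K9M replicate 2. The window means minus WT ran from -14.7 to 5.19 points in K36M replicate 1 and from -14.8 to 2.79 in K36M replicate 2, with medians of -6.15 and -6.58. In K9M they ran from -5.11 to 5.70 and from -6.36 to 4.99 points, with medians of -0.148 and 0.956. Chromosome 1 was similar, with 28 of 29 such windows below WT in each K36M library and medians of -6.27 and -7.02 points. Windows with fewer such tiles were not counted, and in some of them both K36M libraries lay above WT. In chromosome 11 windows with under 50 tiles, the tiles at 20% to 80% were at -2.43 and -3.51 points in K36M. All windows were set against the same WT library.

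**Figure D3:**
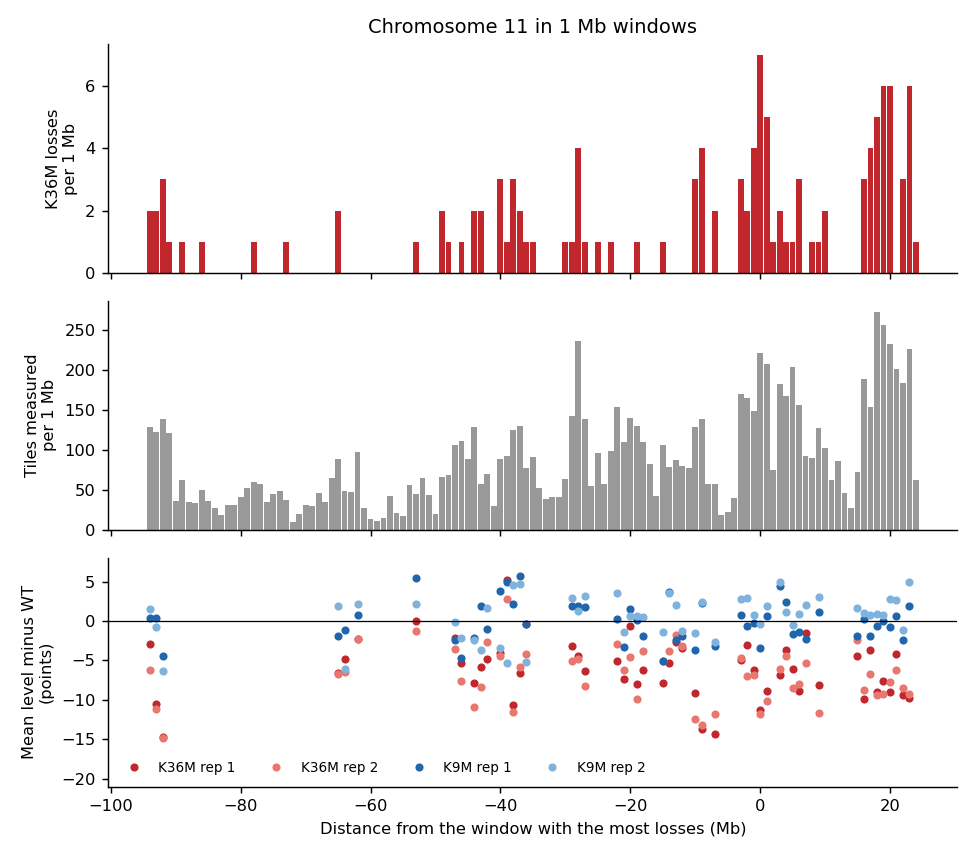
Chromosome 11 in 1 Mb windows, placed by their distance in Mb from the window with the most losses: losses per window (top), measured tiles per window (middle), and the mean level of tiles at 20% to 80% minus that of WT in points, for windows with at least 10 such tiles (bottom). Losses reach 7 per window, and K36M points lie below 0 in 51 of 52 windows in each library while K9M points scatter around 0.

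Tiles next to a loss were also lower in K36M, without being called themselves. The 70 uncalled tiles that adjoin a loss had a mean difference from WT of -7.10 and -6.39 points in the K36M libraries, and of 0.25 and 2.46 points in the K9M libraries. At 4 to 10 kb the K36M differences were -4.03 and -3.53 points, and beyond 200 kb -2.32 and -1.52 points. On chromosome 1 the 14 adjoining tiles had differences of -5.88 and -5.39 points in K36M. Of the 121 losses, 13 adjoined another, 28 had another within 10 kb and 52 within 100 kb, and the median distance was 174 kb. On chromosome 1 the counts were 0, 0 and 8 of 36 losses, and the median distance was 472.5 kb. Chromosome 1 had these 36 losses over 194 windows of 1 Mb, and chromosome 11 had 121 over 119. More losses per Mb lie closer together in any case, so these counts do not compare clustering.

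Promoters could be placed for 806 genes of chromosome 11, from 928 of the 1284 windows with at least 8 CpGs, and promoters with fewer CpGs were not placed. A distance below is to the nearest placed start and not to the nearest gene. Losses were least frequent close to a placed start and farther than 50 kb from one. There were 8 losses in 1479 tiles under 2 kb (5.41 per 1000), 31 in 1242 tiles at 2 to 10 kb (24.96 per 1000), 55 in 3473 at 10 to 50 kb (15.8 per 1000) and 27 in 4194 at 50 kb or more (6.44 per 1000). Among tiles at 20% to 80% the rates were 52.6, 122, 80.7 and 33.0 per 1000. The median distance was 18.7 kb for losses and 33.4 kb for all members.

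In tiles at 20% to 80% that lay 2 to 10 kb from a placed start, the mean level was 43.6% and 42.1% in the K36M libraries, 50.9% and 52.5% in the K9M libraries and 52.9% in WT. At 50 kb or more it was 52.3% and 52.0% in K36M, 55.8% and 56.9% in K9M and 56.6% in WT. K36M was below the 3 other libraries in both classes, and by more in the nearer one.

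**Figure D4:**
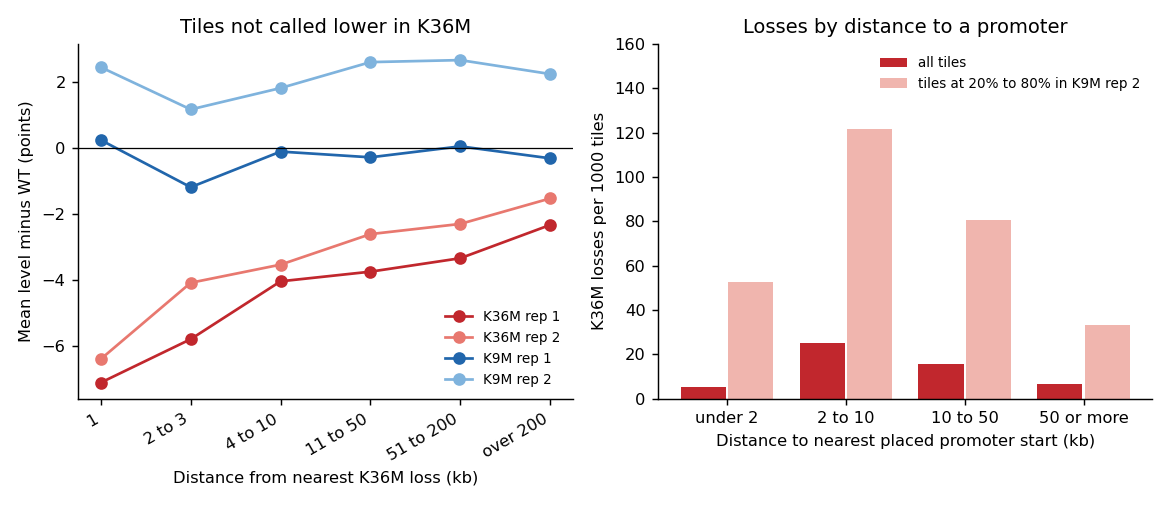
Left, mean level minus WT in points (vertical axis) of chromosome 11 tiles not called lower in K36M, by distance in kb from the nearest loss, for the 4 mutant libraries; right, losses per 1000 tiles by distance in kb to the nearest placed promoter start, for all tiles and for tiles at 20% to 80% in K9M replicate 2. K36M minus WT is at -7.10 and -6.39 points next to a loss and at -2.32 and -1.52 points beyond 200 kb; the loss rate is highest at 2 to 10 kb, at 24.96 per 1000 over all tiles.

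The promoters themselves were nearly all unmethylated in every library. Of 788 gene starts in a measured tile, 749 were in tiles under 20% in K9M replicate 2, with a median of 0.558% and 0.458% in K36M, 0.433% and 0.390% in K9M and 0.426% in WT. A further 18 lay in tiles at 20% to 80% and 21 in tiles at 80% or more. Of the 788 start tiles 1 was a K36M loss, that of the RefSeq gene model Gm32915, and 3 were lower in K36M than in K9M, those of Gm39468, Pttg1 and Chad. The shares over all members were 1.16% and 2.23%, but a tile under 10% can hardly fall by the 10 points a call needs, and 4 of all 2311 such tiles were losses, so these counts say little about promoters.

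The 3 measured CpGs of the Gm39468 window printed above, all within its first part, had a level of 32.7% and 36.1% in K36M, 70.4% and 69.4% in K9M and 63.0% in WT. Both K36M libraries lay below the other 3. The 4 measured CpGs of the Gm32915 window had 36.7% and 26.9% in K36M, 47.5% and 43.8% in K9M and 50.3% in WT, and single CpGs in WT ran from 7.84% to 87.6%. Pttg1 encodes securin, an inhibitor of separase. The 10 measured CpGs of its window had 0.621% and 0.66% in K36M, 14.2% and 20.04% in K9M and 0.712% in WT, so here the K9M libraries were the ones that stood apart. Chad encodes the cartilage matrix protein chondroadherin. Its start tile had 14.7% and 20.8% in K36M, 41.6% and 39.2% in K9M and 27.6% in WT, but the 5 CpGs measured inside its promoter window were at 3.31% to 7.85% in all libraries.

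The Tmc6 window printed above shows the contrast between a promoter and its surroundings. Tmc6 encodes a transmembrane channel-like protein. Its 12 measured CpGs had 0.439% and 0.474% in K36M, 0.201% and 0% in K9M and 0.551% in WT. The tile chr11:117640001-117641000, 1.01 kb from this start and with 13 CpGs, had 2.84% and 2.72% in K36M, 20.04% and 16.9% in K9M and 16.9% in WT.

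Single losses are described next by their levels, without p-values, since they were taken for their low K36M values. The largest was chr11:62449001-62450000, with 3 CpGs, 32.6 kb from the start of 2410006H16Rik and 95.4 kb from that of Zfp287, which encodes a zinc finger protein. It had 1.38% and 2.85% in K36M, 64.9% and 57.0% in K9M and 58.5% in WT, where counting error allowed 46.7% to 73.2%. Both K36M libraries were near 0 and the other 3 were close to each other. At its CpG chr11:62449727, the K36M libraries had methylated counts of 0 and 1 beside second counts of 65 and 108.

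The tile chr11:103053001-103054000 lay 20.6 kb from the start of Fmnl1, a formin of blood cells that nucleates actin, and 25.8 kb from that of Spata32. It had 16.2% and 19.6% in K36M, 75.04% and 75.01% in K9M and 62.9% in WT. Its 5 CpGs did not move together. On one side 3 CpGs were at 0% to 6.62% in K36M and at 6.75%, 67.9% and 56.4% in WT. Of these, chr11:103053253 was thus low in WT too. The CpG chr11:103053958 was at 97.2% and 87.8% in K36M, 94.2% and 99.6% in K9M and 98.1% in WT. The tile chr11:60747001-60748000 was 1.44 kb from the start of Map2k3, a kinase that activates p38. It had 22.6% and 20.4% in K36M, 65.6% and 71.4% in K9M and 64.8% in WT, while the Map2k3 start tile, with 67 CpGs, was at 0.322% and 0.478% in K36M, 0.572% and 0.268% in K9M and 0.474% in WT.

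In other large losses the distance of K9M from WT varied. The tile chr11:90209001-90210000, 42.2 kb from the start of Hlf, a PAR-type leucine zipper transcription factor of blood stem cells, had 13.3% and 14.5% in K36M, 39.5% and 40.5% in K9M and 54.8% in WT. Between Sphk1, which makes sphingosine phosphate, and Snhg16, chr11:116468001-116469000 had 35.7% and 26.3% in K36M, 74.0% and 66.8% in K9M and 72.8% in WT. The tile chr11:95543001-95544000, 14.7 kb from the start of Phb, which encodes prohibitin, had 49.1% and 49.6% in K36M, 82.8% and 87.0% in K9M and 89.95% in WT. In each of these the K36M libraries lay below all 3 others.

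Other calls among the 12 losses with the largest difference were also lost under some alternatives. The tile chr11:8534001-8535000, 29.5 kb from the start of Tns3, which encodes the focal adhesion protein tensin 3, had 38.1% and 41.8% in K36M, 82.4% and 76.5% in K9M and 82.8% in WT. At chr11:114773001-114774000, between Dnaic2 and Slc9a3r1, the levels were 38.2% and 46.6% in K36M, 84.1% and 93.9% in K9M and 83.1% in WT. The shallow tile chr11:32221001-32222000, between Nprl3 and Sh3pxd2b, had 9.00% and 17.3% in K36M, 27.6% and 55.3% in K9M and 54.5% in WT, so that 1 K9M library lay well below WT. With all tiles setting the dispersion prior, these 3 losses had adjusted p-values of 0.103, 0.0502 and 0.111, and without K36M replicate 1 they had 0.105, 0.0778 and 0.25, in the logistic fit. The first also missed the threshold without K36M replicate 2, with an adjusted p of 0.0603.

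Adjoining tiles between Ykt6, a SNARE protein, and Camk2b, a subunit of calcium/calmodulin-dependent kinase II, had many CpGs and low levels in K9M too. The tile chr11:5906001-5907000, with 23 CpGs, had 14.6% and 11.1% in K36M, 21.9% and 45.8% in K9M and 66.0% in WT. The tile chr11:5907001-5908000, with 35 CpGs, had 14.9% and 13.2% in K36M, 13.7% and 31.7% in K9M and 55.5% in WT. Here all 4 mutant libraries lay below WT, the only WT library. Single CpGs split the first tile: up to chr11:5906518 the levels were at most 14.3% in K36M, 27.2% in K9M and 46.6% to 70.9% in WT, and at the next CpG, chr11:5906529, they were 31.6% and 28.2% in K36M, 34.8% and 67.4% in K9M and 79.4% in WT.

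**Figure D5:**
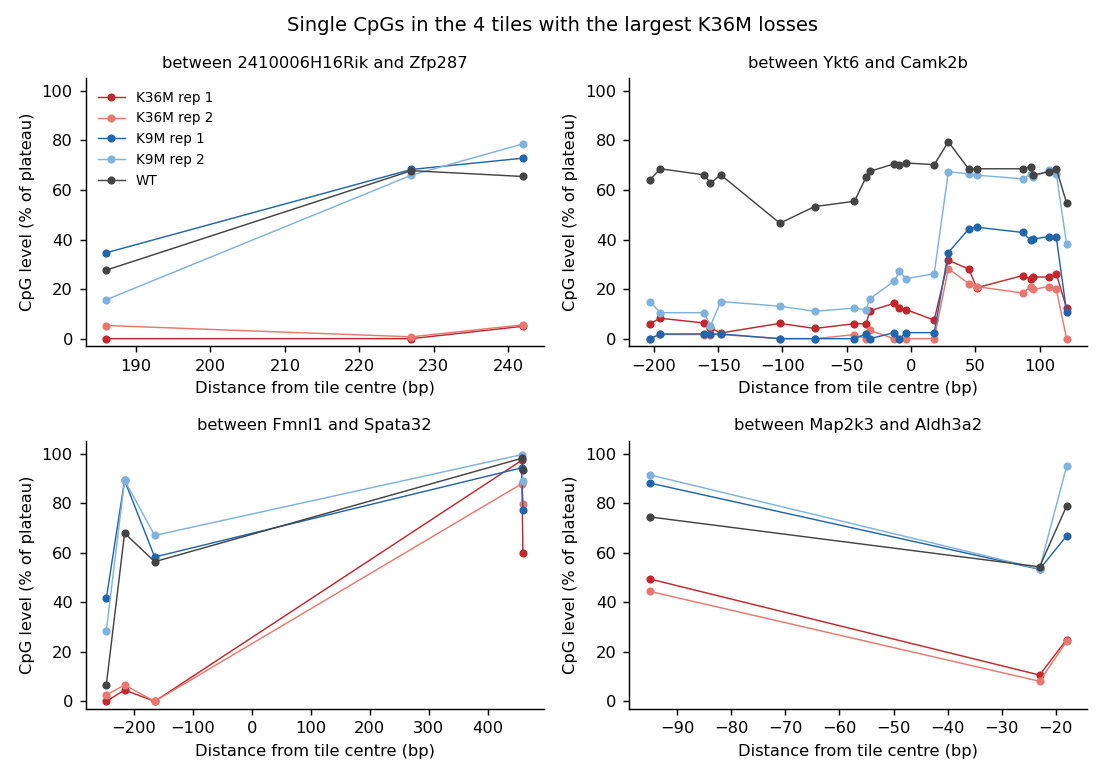
Level of single CpGs (percent of plateau, vertical axis) against distance in bp from the centre of the tile, in the 4 tiles with the largest losses, named by the placed starts on either side; lines join the CpGs of a library. K36M lies below WT at all CpGs, and in the Ykt6 to Camk2b tile both K9M libraries are also below WT on the left, and on the right K9M replicate 2 is closer to WT than K9M replicate 1 is.

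The tile chr11:48639001-48640000, between the ubiquitin ligase genes Trim41 and Trim7 and with 27 CpGs, set WT apart in full. It had 0.455% and 0.455% in K36M, 0.45% and 0.419% in K9M and 17.7% in WT, with a counting range of 16.1% to 19.5% in WT.

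The other losses with many CpGs separated K36M from K9M. The tile chr11:120047001-120048000, with 28 CpGs and 3.17 kb from the start of 2810410L24Rik, had 6.36% and 8.10% in K36M, 39.2% and 43.0% in K9M and 27.9% in WT. The tile chr11:96858001-96859000, with 30 CpGs and in the neighbourhood of the transcription factor gene Sp2, had 21.2% and 20.8% in K36M, 46.6% and 43.1% in K9M and 32.6% in WT. The tile chr11:48982001-48983000, with 31 CpGs and 34.2 kb from the start of Zfp62, had 5.82% and 7.44% in K36M, 14.9% and 16.7% in K9M and 18.8% in WT. In the first and second of these, K9M was above WT and K36M below it.

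In the window with the most losses, chr11:97000001-98000000, the mean of the tiles at 20% to 80% was 36.9% and 36.4% in K36M, 44.8% and 47.9% in K9M and 48.2% in WT. It holds the starts of Psmb3, a proteasome subunit, Cwc25, a splicing factor, Mllt6, a fusion partner of the leukaemia gene MLL, and Lasp1, an actin-binding protein. The largest of its 7 losses was chr11:97604001-97605000, with 33.3% and 28.6% in K36M, 61.3% and 58.7% in K9M and 71.4% in WT. In the logistic fit with the replicate block it was not called (adjusted p = 0.0921). The adjoining tiles chr11:97579001-97580000 and chr11:97580001-97581000, 14.3 kb and 15.3 kb from the start of Psmb3, were low in all 4 mutant libraries. The second of them had 32.3% and 35.6% in K36M, 39.98% and 37.5% in K9M and 59.4% in WT. The 4 other losses were at chr11:97204001, chr11:97488001, chr11:97692001 and chr11:97816001 and had a K36M level of 5.58% to 55.4%, a K9M level of 12.8% to 80.1% and a WT level of 25.8% to 80.8%. Without K36M replicate 2 none of these 4 was called, with adjusted p-values of 0.0603 to 0.178, and without K36M replicate 1 the one at chr11:97816001 was not, with 0.0588.

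The window chr11:117000001-118000000 held a run of losses at Septin9, which encodes a cytoskeletal GTPase and has more than 1 placed start. The tiles chr11:117178001-117179000, chr11:117179001-117180000 and chr11:117180001-117181000 adjoined each other, 12.6 kb to 14.6 kb before one Septin9 start and 50.4 kb to 52.4 kb after another. The first had 7.71% and 3.97% in K36M, 21.3% and 22.8% in K9M and 18.3% in WT, and the second 8.95% and 7.495% in K36M, 22.1% and 19.9% in K9M and 23.9% in WT. A further loss, chr11:117207001-117208000, 13.4 kb past the nearer start, had 6.92% and 6.26% in K36M, 45.6% and 47.9% in K9M and 36.9% in WT. The tile chr11:117183001-117184000 between them had 16.7% and 23.5% in K36M, 67.1% and 84.9% in K9M and 62.9% in WT, and was called against K9M (adjusted p = 0.00235) and not against WT. The third adjoining tile had 0.82% and 0% in K36M, 5.54% and 13.1% in K9M and 12.5% in WT. At all 5 of these tiles both K36M libraries lay below both K9M libraries and WT. Besides the losses at Septin9 and Tmc6, the window held the loss chr11:117630001-117631000, with 56.9% and 47.3% in K36M, 76.7% and 88.7% in K9M and 81.3% in WT. Without K36M replicate 2 that loss (adjusted p = 0.408) and those at chr11:117178001 (0.0997) and chr11:117180001 (0.127) were not called.

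The window chr11:120000001-121000000 held adjoining losses on one side of the Gm11772 start and a loss between Sirt7 and Mafg. The tile chr11:120101001-120102000, 1.65 kb from the Gm11772 start, had 2.79% and 3.02% in K36M, 34.1% and 31.0% in K9M and 18.6% in WT, with WT between K36M and K9M. The next tile, chr11:120102001-120103000, was at a high level, with 63.4% and 59.9% in K36M, 89.3% and 91.6% in K9M and 85.9% in WT. The tile chr11:120490001-120491000 lay 3.67 kb from the start of Sirt7, a nuclear deacetylase, and 3.86 kb from that of Mafg, a small Maf transcription factor. It had 14.0% and 16.5% in K36M, 33.1% and 43.7% in K9M and 51.6% in WT. The remaining losses of this window were the 28-CpG tile near 2810410L24Rik above, its neighbour and a tile near Bahcc1. The neighbour, chr11:120046001-120047000, had 38.2% and 40.6% in K36M, 90.5% and 87.2% in K9M and 76.5% in WT. The tile chr11:120088001-120089000, 5.26 kb from the start of Bahcc1, had 5.14% and 6.02% in K36M, 32.5% and 36.8% in K9M and 35.9% in WT. It was not called without K36M replicate 1 or without K36M replicate 2 (adjusted p = 0.054 and 0.057), nor was chr11:120102001 without K36M replicate 2 (0.103).

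The 3 tiles that were higher in K36M than in WT did not share a pattern with the losses. The tile chr11:67481001-67482000, between Sco1 and Stx8, had 46.4% and 68.9% in K36M, 77.7% and 83.7% in K9M and 22.6% in WT. The tile chr11:75708001-75709000, between Ywhae and Rflnb, had 39.02% and 58.2% in K36M, 63.2% and 64.7% in K9M and 18.3% in WT. In both, all 4 mutant libraries lay above WT, the only WT library. At chr11:118867001-118868000 the levels were 15.6% and 8.35% in K36M, 1.32% and 1.30% in K9M and 1.93% in WT. Without K36M replicate 1 this gain had an adjusted p of 0.0935, and 0.0509 with all tiles setting the dispersion prior.

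In K9M against WT, 7 tiles of chromosome 11 were lower, where 0.055% of all autosomal tiles were called, and 13 were higher, where 0.0996% were called. The shares on chromosome 11 were 0.0674% and 0.125%. With all tiles setting the dispersion prior the counts were 2 and 6, and with the replicate block 3 and 6. Next to the tiles named above, chr11:102260001-102261000, 7.83 kb from the start of the mitochondrial carrier gene Slc25a39, was lower in K9M, with 31.9% and 33.2% in K9M against 52.9% in WT (adjusted p = 0.0179), and K36M had 41.0% and 34.2%. The tile chr11:99793001-99794000 had 30.8% and 29.5% in K9M against 47.8% in WT (adjusted p = 0.0265), and K36M had 37.8% and 34.8%. Neither was called with all tiles setting the dispersion prior (adjusted p = 0.0928 and 0.112) or with the replicate block (0.16 and 0.191).

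The K9M gain chr11:88552001-88553000 lay 26.5 kb from the start of Msi2, an RNA-binding protein of blood stem cells. It had 5.59% and 3.45% in K36M, 56.5% and 47.4% in K9M and 21.2% in WT, with adjusted p = 0.00165 for K9M against WT and 1.2e-07 for K36M against K9M. Similarly, chr11:97447001-97448000, 76.7 kb from the start of Mllt6, had 15.3% and 11.5% in K36M, 45.2% and 47.9% in K9M and 18.1% in WT (adjusted p = 0.00287 for K9M against WT). At chr11:113034001-113035000 the K9M libraries had 46.6% and 60.6%, the K36M libraries 35.3% and 41.6% and WT 23.2% (adjusted p = 0.00792 for K9M against WT, 0.0715 with all tiles setting the dispersion prior and 0.131 with the replicate block). In the first and second of these, K36M and K9M stood on opposite sides of WT, though in the second the K36M mean minus WT was only -4.75 points.

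K36M against K9M, which does not use the WT library, called more tiles than either comparison with WT. Over all autosomal tiles 1.57% were lower in K36M, and on chromosome 11 it was 232 tiles, or 2.23%. It was 0.981% on chromosome 1. The reverse was called for 0.104% of all tiles and for 8 tiles on chromosome 11 (0.077%). The mean level of the 232 tiles was 23.8% and 23.7% in K36M, 51.3% and 52.7% in K9M and 44.2% in WT, and the median difference of K36M from K9M was -26.7 points. Among those not called against WT, the largest differences were at the Septin9 tile above, at chr11:97679001-97680000, 18.1 kb from the start of Lasp1, and at chr11:106657001-106658000, 6.44 kb from the start of the centrosomal protein gene Cep95. The Lasp1 tile had 29.0% and 22.9% in K36M, 86.2% and 93.0% in K9M and 66.6% in WT (adjusted p = 0.000738), and the Cep95 tile 23.1% and 24.2% in K36M, 60.8% and 93.7% in K9M and 58.5% in WT (adjusted p = 0.00254).

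The minimum of 3 CpGs per tile set the edge of the tile set. The 2788 tiles with 2 CpGs, just outside, had mean differences from WT of -3.16 and -3.12 points in the K36M libraries, and the 2341 tiles with 3 CpGs, just inside, had -4.38 and -3.25 points.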

How the data were processed

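Reduced representation bisulfite sequencing was made with the NuGen Ovation kit from MspI-cut DNA, per the labels' protocols. cutadapt, BSMAP and the build mm9 come from the submitters' processing notes; versions are not given in the sources used here. Each deposited file lists CpGs with a level, deposited as a fraction, and a total count. Nothing in the files says how the authors made the levels, so absolute methylation is unknown; all levels are relative to a plateau, the median ratio in the top 20% of tiles by rank.

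Counts were summed per tile. The main test was a logistic fit of methylated against second counts over 152678 autosomal tiles, with the plateau as offset, dispersion on 2 residual df moderated by limma 3.58.1 (R 4.3.3; prior df 12.6; minimum dispersion 1), F tests and Benjamini-Hochberg adjustment. The prior left out 909 tiles in which a K36M or K9M group had no methylated count; this was chosen after calls were seen, and the prior from all tiles called 77 chromosome 11 losses in place of 121. Rates and counting ranges are exact or binomial 95% intervals, which cover counting error only, since reads carried no molecular identifiers. Alternatives included coverage minimums, another plateau, the deposited scale, limma, edgeR 4.0.16, a replicate block and leaving out each K36M and K9M library.

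The members and lists were chosen with earlier results of these data known. The text names the 12 largest K36M losses, the gains, the 5 losses with most CpGs, the 5 largest changes each way in K9M, the 3 largest in K36M against K9M alone, and the losses of the 3 windows with the most (ties by rate). No genome of the files' build was used, and placing promoters by CpG spacing was added after the data were seen: RefSeq windows of 300 bases with at least 8 listed CpGs were matched over 19 autosomes; 928 fell on 1 place each, all on chromosome 11, 25 matched more than 1 place, and none of the placed neighbours was out of order. Gene bodies were not used.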

Additional observations from a re-analysis of the deposited data

How the results depend on the processing

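No result reversed its direction under the alternatives run except the K9M minus WT mean over all tiles, which was 1.09 points and ranged from -0.20 without K9M replicate 2 to 2.38 without K9M replicate 1. The calls depended on the model of the counts. With the levels as deposited, with the second count times plateau as denominator, and with limma on relative levels, 0 chromosome 11 tiles were called in each of the 3 comparisons, in either direction. At an unadjusted p under 0.05 and 10 points, the losses in K36M against WT then numbered 25, 544 and 659, against 415 in the main test and 450 in edgeR's quasi-likelihood test, which called 169 after adjustment; the cause was not tested. With the dispersion prior from all tiles there were 77 losses in K36M against WT, 2 losses and 6 gains in K9M against WT. With the replicate block the counts were 61, 3 and 6; the numbers are shared by only 2 pairs of libraries whose deviations correlated at r = 0.0773 over tiles, so they were not taken to pair the libraries. Of the 121 losses, 59 were among those called with the block and 120 among those called by edgeR. Leaving out each K36M and K9M library in turn gave 91 to 176 losses and 5 to 6 gains in K36M against WT, and 11 to 15 losses and 19 to 22 gains in K9M against WT; fits without 1 library leave 1 residual df. A lone K36M or K9M library was then assumed to vary like the other groups.

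The K36M minus WT mean of -2.70 points was -1.97 when 40% of tiles set the plateau and -1.07 with the levels as deposited, where K9M minus WT was 13.9 and K36M minus K9M -15.0 points, since K9M replicate 2 is on another scale. The matched ratio to chromosome 1 of 2.14 stayed between 1.76 and 2.44 wherever tiles were called, and was 1.38 against the other 18 autosomes. The most losses in a window ranged from 5 to 9 in the settings for which windows were counted. These did not include the replicate block, the prior from all tiles or the settings without calls. Of the 44 named tiles, 43 were called by edgeR, 23 with the replicate block and 29 with the prior from all tiles. Depth limits tiles with few CpGs: the lowest mean second count per CpG among the losses was 10.3.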
